A study of Rattus norvegicus with 20 samples.

Results

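RNA was sequenced from cultured vaginal epithelial cells of the rat before they were transplanted into mouse skin and after they were recovered from it. The comparison used 4 of the 20 samples of the series, 2 cultured before transplantation and 2 cultured after recovery, chosen by their labels alone. The donors were Sprague-Dawley rats that express EGFP constitutively (green rat, act-EGFP transgene), and the vagina was taken at postnatal day 200. In both groups the cells grew on irradiated mouse 3T3-J2 fibroblasts as a feeder layer and were sorted for EGFP before RNA was extracted. The recovered cells had in addition passed through a newborn mouse skin environment grafted onto athymic mice, were dissected back out with the EGFP-positive hair follicles, and were cultured again. The labels call all 4 samples bulk cultures, and the RNA-seq samples sequenced were those of best RNA quality. Nothing states that the samples of a group came from separate animals or transplants, so the spread between them may be technical. The p-values rest on that spread pooled over the 2 samples of each of the 10 groups in the series, not on the vaginal samples alone. The rest of the series holds cells before and after transplantation from bladder, trachea, thymus and whisker follicle, with 2 samples in each group, from donors of the same strain and transgene. The trachea was also taken at postnatal day 200, the bladder within 1 day of that age, the thymus from a younger donor and the whisker follicles at postnatal day 57. The whisker samples were a clone before and a subclone after transplantation, and for the thymus samples before transplantation the titles say bulk while the source names give a clone, so that in these tissues clone and transplantation cannot be told apart.

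The vaginal lining is a stratified squamous mucosa that does not normally form hair, and its growth and keratinisation follow the ovarian hormones through the estrogen receptor. Stratified epithelia of all sites share a basal layer with keratins, desmosomes and hemidesmosomes anchored in a basement membrane, and differ in the keratins, secreted proteins and transcription factors of their upper layers and lineages. Skin epidermis forms a cornified envelope, while mucosae typically keep keratins such as keratin 4 and simple-epithelium proteins.

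Each vaginal sample held between 22552089 and 29824855 counts on genes, and 3 counts, the smallest level taken as detected, came to between 0.104 and 0.133 CPM (a gene's count relative to the library total, scaled with TMM factors). Log2 CPM correlated at 0.995 (Pearson, across genes) within each group and at 0.956 to 0.960 between the groups. The labelled origin was checked against marker genes. Of 5 basal epithelial markers tested limma voom, edgeR and DESeq2 each called 0, where a call needs a change of at least 2-fold. Dsg3 and Cdh1 (E-cadherin) rose by less, by 0.64 and 0.33 on the log2 scale (limma voom adjusted p = 7.28e-05 and 0.00202). Cdh1 stood at 828 and 894 CPM before and 1084 and 1082 CPM after recovery. Of 34 reproductive tract and mucosal genes listed, only 21 could be paired with an identifier. Of the defining mucosal markers Krt4 and Esr1 were present before transplantation, and Krt13 is not reported here. After recovery Krt4 and Esr1 were far lower, Krt4 at 15.8 and 14.8 CPM and Esr1 at 0.754 and 0.696 CPM. Krt4 also stood at 363 and 396 CPM in trachea cells before transplantation, so it does not mark vaginal cells alone. The fibroblast list, which could pick up feeder or skin cells, had 0 of 11 members called by limma voom, edgeR or DESeq2. Col5a2 and Col5a1 rose by less than 2-fold, by 0.65 and 0.33 on the log2 scale (limma voom adjusted p = 2.45e-05 and 0.0308). The summed level of the list was 528 and 517 CPM before and 745 and 762 CPM after recovery. Col1a1, a defining member, stood at 15.9 and 16.5 CPM before and 13.7 and 15.5 CPM after recovery. Of 5 leukocyte markers 3 were called lower (Cd68, Coro1a and Cd28), and their summed level went from 61.0 and 63.4 CPM to 16.9 and 14.97 CPM. Cd68, a lysosomal protein of macrophages and other cells, made up nearly all of it, at 60.2 and 62.6 CPM before and 16.6 and 14.7 CPM after recovery. Of 3 endothelial markers Esam was called lower, from 0.268 and 0.620 CPM to 0.168 and 0.0696 CPM, with an adjusted p of up to 0.288 when 1 sample was left out. Without the second recovered sample the adjusted p was 0.0813 for Coro1a, and it reached 0.102 for Cd28 without the first sample before transplantation. The Y-chromosome gene Eif2s3y had 0, 0, 0 and 1 counts in the 4 samples. The part of these other cells in the results was not tested, and in bulk samples fewer cells of a type and less RNA per cell cannot be told apart.

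Of 13302 genes tested, 1567 were called (11.8%), with a limma voom adjusted p below 0.05 and a change of at least 2-fold. In recovered cells 565 genes were higher (4.25%) and 1002 were lower (7.53%). The falls were also the deeper changes. At least 8-fold, 68 genes were higher and 264 lower, and at least 32-fold, 12 were higher and 67 lower. Without the first sample before transplantation the count of higher genes was 375, while the count of lower genes was 927. Only 1913 of the genes tested had a usable symbol. Names came from incomplete gene tables of the study, which list genes that differed from whisker follicle cells in this same RNA-seq series. The named genes were thus preselected on these data, and 29.2% of them were called against 11.8% of all genes tested. Of the named genes 192 were higher (10.0%) and 367 lower (19.2%). Those shares, not the ones over all genes, are the background for the gene groups described here.

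**Figure D1:**
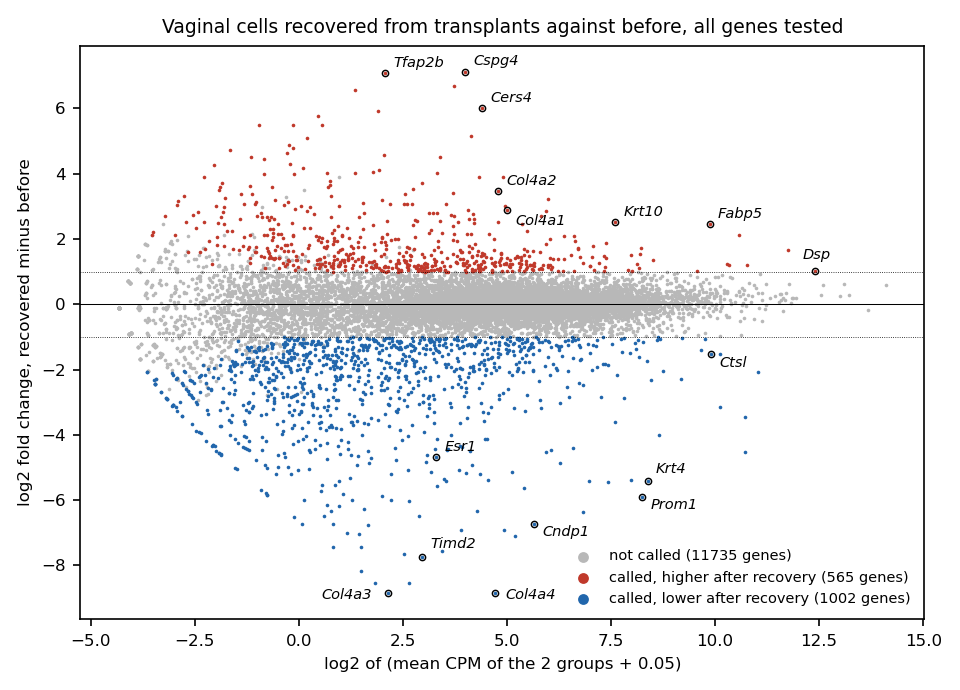
Each of the 13302 genes tested is plotted by its mean level in the vaginal samples (x axis, log2 of mean CPM plus 0.05) and its log2 fold change, recovered minus before (y axis), with called genes in red (565 higher) and blue (1002 lower) and dotted lines at a 2-fold change. The blue points reach below -8, where Col4a3 and Col4a4 lie, and the red ones up to about 7, where Cspg4 and Tfap2b lie.

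The deepest named falls and some of the largest named rises were chains of type IV collagen, the network-forming collagen of basement membranes. Its alpha1 and alpha2 chains (Col4a1 and Col4a2) make up the common network of most basement membranes, and the alpha3 and alpha4 chains (Col4a3 and Col4a4) belong to a second network found at restricted sites. The genes lie in pairs, head to head, with both members of a pair read outward from a shared stretch of DNA. The 300-base windows around their starts (250 bases before to 50 after, RefSeq, build GRCr8, each 5′ to 3′ on the gene's own strand) are shown because the members of each pair changed together. Capitals mark the bases that a window shares with the window of its partner on the other strand. Col4a1 lies at chr16:84885347-84885646 (+ strand) and Col4a2 at chr16:84885471-84885770 (- strand), with 176 shared bases and starts 77 bases apart. Col4a3 lies at chr9:91323740-91324039 (+ strand) and Col4a4 at chr9:91323528-91323827 (- strand), with 88 shared bases and starts 413 bases apart.
Col4a1: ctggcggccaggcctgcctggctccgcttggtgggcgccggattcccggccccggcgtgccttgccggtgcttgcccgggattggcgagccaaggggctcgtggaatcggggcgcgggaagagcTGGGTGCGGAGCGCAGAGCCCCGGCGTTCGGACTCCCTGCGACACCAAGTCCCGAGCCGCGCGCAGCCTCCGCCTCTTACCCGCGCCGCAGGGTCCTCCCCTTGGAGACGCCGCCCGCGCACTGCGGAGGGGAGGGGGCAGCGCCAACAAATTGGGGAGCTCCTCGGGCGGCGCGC
Col4a2: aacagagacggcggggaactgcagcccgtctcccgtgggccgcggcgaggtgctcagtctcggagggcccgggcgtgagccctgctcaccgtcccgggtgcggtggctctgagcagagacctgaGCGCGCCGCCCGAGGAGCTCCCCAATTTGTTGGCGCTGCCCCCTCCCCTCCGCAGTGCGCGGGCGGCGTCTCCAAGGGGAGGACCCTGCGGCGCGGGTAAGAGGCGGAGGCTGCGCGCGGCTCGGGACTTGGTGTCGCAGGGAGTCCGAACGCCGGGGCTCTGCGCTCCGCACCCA
Col4a3: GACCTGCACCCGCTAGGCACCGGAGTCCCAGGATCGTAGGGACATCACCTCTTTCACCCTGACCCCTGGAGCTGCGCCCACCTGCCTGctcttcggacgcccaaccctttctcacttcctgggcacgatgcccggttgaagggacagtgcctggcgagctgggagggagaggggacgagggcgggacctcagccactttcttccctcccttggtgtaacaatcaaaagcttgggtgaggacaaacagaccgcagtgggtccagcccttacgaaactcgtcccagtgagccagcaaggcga
Col4a4: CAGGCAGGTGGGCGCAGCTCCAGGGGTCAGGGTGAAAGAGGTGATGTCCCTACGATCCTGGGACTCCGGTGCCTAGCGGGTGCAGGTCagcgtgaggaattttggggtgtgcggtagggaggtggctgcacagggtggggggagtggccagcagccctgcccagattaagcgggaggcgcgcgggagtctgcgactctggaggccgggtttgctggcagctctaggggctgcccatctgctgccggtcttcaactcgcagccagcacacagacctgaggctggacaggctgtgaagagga
Of all 33469 RefSeq windows, 10.22% overlapped the window of a gene on the other strand. The Col4a1 and Col4a2 windows were 75.0% and 73.7% G and C with 38 and 37 CpG dinucleotides, and those of Col4a3 and Col4a4 were 62.0% and 65.3% with 15 and 14, against medians of 51.7% and 7 over all windows. The letters GGGCGG were searched on both strands. They occurred 2 times in the stretch shared by Col4a1 and Col4a2 and 0 times in that shared by Col4a3 and Col4a4. The whole 300-base windows of Col4a1, Col4a2, Col4a3 and Col4a4 held them 2, 2, 1 and 0 times, and 33.1% of all windows held them. CCAAT, also searched on both strands, occurred 1 time in the first stretch and 0 times in the second. The whole windows held it 2, 1, 0 and 0 times in the same order, and 37.5% of all windows held it. These matches describe letters in a window and not binding.

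The alpha1 and alpha2 chains rose together. Col4a1 (ENSRNOG00000016281) stood at 7.15 and 8.24 CPM before and 52.3 and 60.8 CPM after recovery, and Col4a2 (ENSRNOG00000023972) at 3.94 and 5.40 CPM before and 48.5 and 52.8 CPM after recovery. Neither gene's groups overlapped, and 34.2% of the named genes likewise had both recovered samples above both earlier ones. Col4a1 rose by 2.88 on the log2 scale (SE 0.18, adjusted p = 3.75e-09), and Col4a2 rose by 3.47 on the log2 scale (SE 0.20, adjusted p = 1.48e-09). The alpha3 and alpha4 chains went the other way, to the limit of detection. Col4a4 (ENSRNOG00000014851) fell from 54.0 and 49.9 CPM to 0.0838 and 0.104 CPM, which are 2 and 3 counts (ratio 548, exact 95% counting interval 235 to 1689.7, SE 0.53, adjusted p = 2.60e-09). Col4a3 (ENSRNOG00000015365) had 246 and 182 counts before, or 9.40 and 8.06 CPM, and 0 counts in both recovered samples, so that it was at least 75.9-fold lower against a floor of 3 counts per library (adjusted p = 1.09e-05). Bladder cells went the opposite way at all 4 genes and thymus cells the same way, and each of these changes was called. In bladder cells Col4a1 fell from 74.1 and 69.4 CPM to 8.33 and 9.86 CPM while Col4a4 rose from 0.261 and 0.474 CPM to 19.8 and 20.5 CPM. In thymus cells Col4a1 rose from 9.13 and 7.33 CPM to 19.4 and 21.5 CPM while Col4a4 fell from 6.71 and 9.86 CPM to 0.382 and 0.462 CPM. In whisker cells Col4a3 had 0 counts in all 4 samples.

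**Figure D2:**
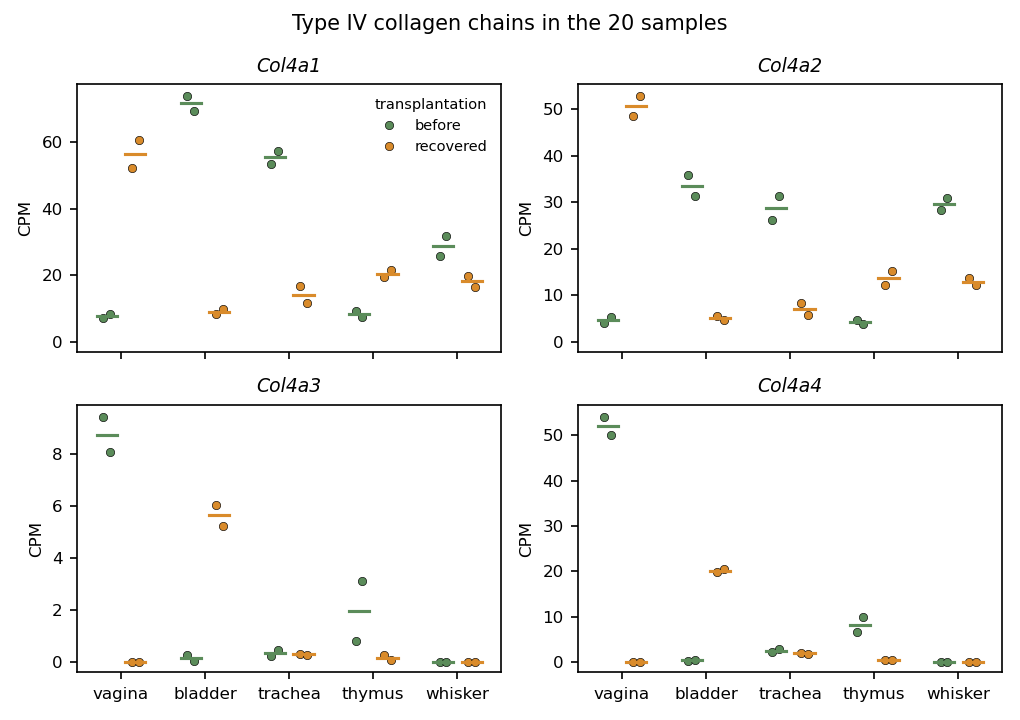
CPM (y axes, linear) of the 4 type IV collagen genes in all 20 samples, by tissue (x axis), before transplantation (green) and after recovery (orange), with a point for each sample and a bar at the mean of 2. In vaginal cells Col4a1 and Col4a2 go up to between 48.5 and 60.8 CPM while Col4a3 and Col4a4 go down to at most 0.104 CPM, in bladder cells the 2 pairs move the opposite ways, and in thymus cells they move the same ways as in vaginal cells.

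Of the 10 basement membrane and hemidesmosome genes tested, 4 were higher and 2 lower, with a median log2 fold change of 0.020 against -0.12 over the named genes. The 2 lower ones were Col4a3 and Col4a4. Beside Col4a1 and Col4a2, the higher ones were Itgb8, an integrin subunit, and Frem3, a basement membrane protein. Itgb8 stood at 9.48 and 6.34 CPM before and 19.98 and 18.5 CPM after recovery and rose by 1.29 on the log2 scale (SE 0.19, adjusted p = 4.38e-05). Frem3 stood at only 0.191 and 0.222 CPM before and 0.628 and 0.696 CPM after recovery and rose by 1.60 on the log2 scale (SE 0.44, adjusted p = 0.00859), with an adjusted p of 0.0800 without the first sample before transplantation. Proteins that anchor the basal layer showed no call. Col17a1, the hemidesmosomal collagen, stood at 3583 and 3514 CPM before and 3616 and 3686 CPM after recovery (log2 fold change 0.041, SE 0.20, adjusted p = 0.898), and Col7a1, the collagen of anchoring fibrils, at 877 and 876 CPM before and 811 and 850.4 CPM after recovery (log2 fold change -0.077, SE 0.19, adjusted p = 0.781).

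Genes of the reproductive tract and of mucosal surfaces were lower in recovered cells with few exceptions. Of 21 tested, 15 fell, 1 rose and 5 were not called, and the median log2 fold change was -2.87 against -0.12 over the named genes. Their summed level went from 1888 and 1847 CPM to 367 and 371 CPM. Krt4, Krt8, Krt18, Foxa1 and Isl1 are on this list because the study names them. Without any 1 of the 4 vaginal samples 14 were called lower.

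Keratins of the list fell together. Krt4 (ENSRNOG00000032332), a keratin of non-cornified stratified mucosae, stood at 683 and 622 CPM before and 15.8 and 14.8 CPM after recovery. The groups lay far apart, and Krt4 fell by 5.42 on the log2 scale (SE 0.42, adjusted p = 4.29e-08). Krt8 (ENSRNOG00000009779) and its partner Krt18, keratins typical of simple epithelia, stood at 212 and 274 CPM before and 5.19 and 6.13 CPM after recovery and at 7.07 and 7.58 CPM before and 1.76 and 1.36 CPM after recovery. Krt8 fell by 5.40 on the log2 scale (SE 0.19, adjusted p = 4.56e-12), and Krt18 fell by 2.24 on the log2 scale (SE 0.32, adjusted p = 4.14e-05). Krt19, another keratin of simple and glandular epithelia, fell by 5.18 on the log2 scale (SE 0.43, adjusted p = 1.00e-07), from 27.2 and 35.5 CPM to 0.670 and 1.01 CPM. Reads with several alignments were not counted, so that levels of keratins with near-identical copies in the genome are uncertain.

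Proteins of the mucosal surface followed. Upk1b, a tetraspanin of the urothelial plaque, was at 36.3 and 39.8 CPM before and 0.377 and 0.522 CPM after recovery, and Tspan8, a tetraspanin of many glandular surfaces, at 429.7 and 360.0 CPM before and 52.7 and 55.1 CPM after recovery. Both genes had recovered samples far below the earlier ones, and they fell by 6.34 (SE 0.43, adjusted p = 9.80e-09) and by 2.87 (SE 0.15, adjusted p = 6.36e-10) on the log2 scale. Psca, a membrane-anchored surface protein of bladder, prostate and squamous mucosae, fell by 4.47 on the log2 scale (SE 0.66, adjusted p = 5.16e-05). Pigr, the receptor that carries immunoglobulin across mucosal cells, fell from only 3.36 and 4.96 CPM to 0.419 and 0.0696 CPM, the latter 10 and 2 counts (ratio 18.0, exact 95% counting interval 10.1 to 35.4, adjusted p = 2.45e-05).

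Transcription factors and receptors of the tract behaved less evenly. Esr1 (ENSRNOG00000019358), the estrogen receptor alpha, stood at 20.6 and 17.1 CPM before and 0.754 and 0.696 CPM after recovery, and fell by 4.67 on the log2 scale (SE 0.32, adjusted p = 1.26e-08). Foxa1, a pioneer factor of glandular epithelia, was at 3.44 and 3.77 CPM before and 1.30 and 1.04 CPM after recovery and fell by 1.62 on the log2 scale (SE 0.53, adjusted p = 0.0236). Without any 1 of the 4 samples the adjusted p of Foxa1 lay between 0.0543 and 0.137. Emx2, a homeobox factor needed for the urogenital tract, was at 32.4 and 35.6 CPM before and 13.7 and 16.01 CPM after recovery. It stayed above 13 CPM in both recovered samples and fell by 1.19 on the log2 scale (SE 0.092, adjusted p = 4.58e-08). Isl1, a LIM homeobox factor, was at 8.07 and 7.62 CPM before and 6.03 and 4.94 CPM after recovery with a log2 fold change of -0.53 (adjusted p = 0.00703). The 1 member that rose was Wt1, a factor of urogenital development, at 0.0382 and 0.0443 CPM before and 0.587 and 0.661 CPM after recovery, below 1 CPM throughout (ratio 15.3, exact 95% counting interval 3.91 to 131, SE 0.56, adjusted p = 0.00015).

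**Figure D3:**
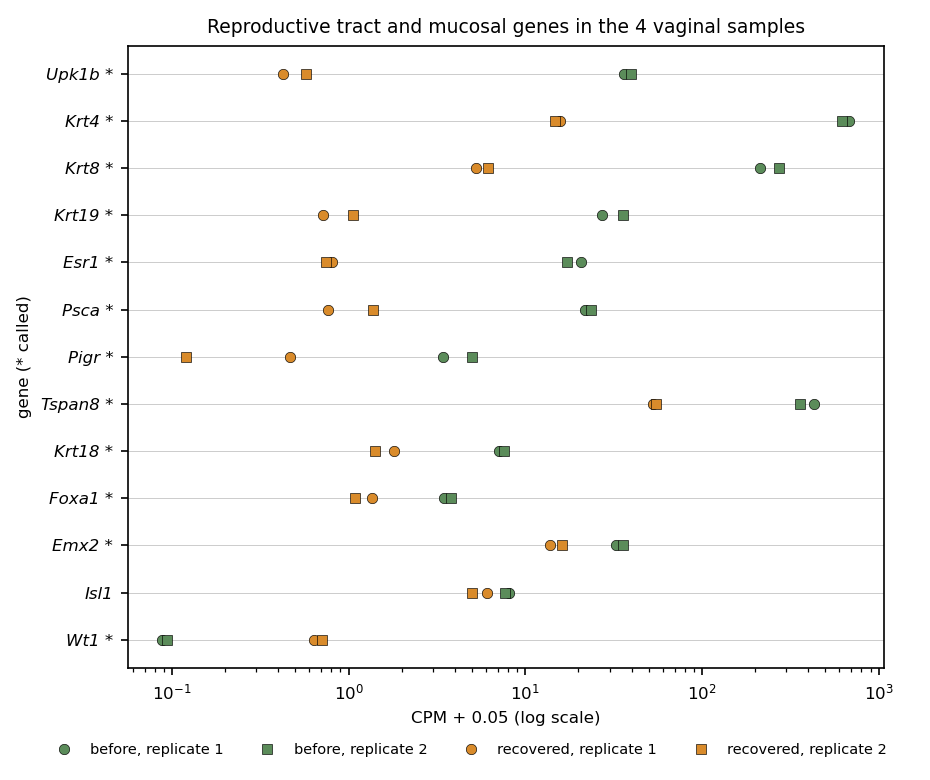
CPM plus 0.05 (x axis, log scale) of those reproductive tract and mucosal genes that are named in the text (y axis, ordered by log2 fold change) in the 2 samples before (green) and the 2 after recovery (orange), with called genes starred. For each of the lower genes shown both orange points lie left of both green ones, and the gap is widest for Upk1b and the keratins Krt4, Krt8 and Krt19.

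Cell adhesion genes moved in both directions within families. Desmosomes are the junctions that tie keratin networks of neighbouring cells together, through desmogleins and desmocollins on the surface and desmoplakin inside. Dsp (desmoplakin) stood at 3416 and 3763 CPM before and 7229.8 and 7300.1 CPM after recovery and rose by 1.02 on the log2 scale (SE 0.14, adjusted p = 1.91e-05). Dsc3, the desmocollin of lower layers, stood at 731 and 757 CPM before and 1769 and 1763 CPM after recovery and rose by 1.25 on the log2 scale (SE 0.089, adjusted p = 1.87e-08). Dsc2, the widely expressed desmocollin, went down, from 774 and 809 CPM to 391.96 and 391 CPM, or by 1.02 on the log2 scale (SE 0.14, adjusted p = 2.61e-05). Dsg1, a desmoglein of upper epidermal layers, rose by 1.84 on the log2 scale (SE 0.16, adjusted p = 1.87e-07), and Dsg4, a desmoglein of hair and upper epidermis, rose from 0.0765 and 0.310 CPM, or 2 and 7 counts, to 1.01 and 1.08 CPM (ratio 5.66, exact 95% counting interval 2.78 to 13.0, adjusted p = 0.000963). The changes of Dsp and Dsc2 lie near the 2-fold threshold, with log2 fold changes of 0.93 for Dsp without the first and -0.98 for Dsc2 without the second sample before transplantation. Of the 15 desmosome and cadherin genes tested 6 rose and 3 fell. Cdh2 (N-cadherin) rose from 0.344 and 0.222 CPM to 3.52 and 2.54 CPM (adjusted p = 4.91e-05), and Cdh17, a cadherin of intestinal epithelium, fell to 0 and 2 counts (ratio 42.1, exact 95% counting interval 11.3 to 354, SE 0.70, adjusted p = 2.27e-05). Cdh16, a cadherin of kidney tubules, fell from 1.87 and 2.22 CPM to 0.168 and 0.0696 CPM (ratio 17.8, exact 95% counting interval 7.90 to 49.7, adjusted p = 5.02e-06).

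Tight junctions, which seal the space between cells, had 4 of 13 genes lower (30.8%) and 0 higher by limma voom, edgeR and DESeq2. Of the named genes 19.2% were lower and 10.0% higher by limma voom. At an unadjusted p below 0.05, 1 gene of the group was higher, and the median log2 fold change of the group was -0.66. Cldn7, a claudin of many simple epithelia, went from 5.35 and 5.71 CPM to 1 and 0 counts (ratio 290.4, exact 95% counting interval 51.7 to 11511, SE 0.63, adjusted p = 1.33e-07). Jam2, a junctional adhesion molecule, fell by 2.99 on the log2 scale (SE 0.30, adjusted p = 9.45e-07). Cldn8 fell from 1.03 and 1.15 CPM to 0.335 and 0.278 CPM (adjusted p = 0.00646, or 0.0663 without the second recovered sample), and Cgnl1 (paracingulin), a cytoplasmic protein of the junction, fell by 1.32 on the log2 scale (SE 0.090, adjusted p = 1.00e-08). Cldn4 stood at 693 and 658 CPM before and 626 and 594 CPM after recovery, and its change was not called (adjusted p = 0.295).

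Genes of the cornified envelope and of the epidermal lipid barrier rose in part. Of 32 tested 11 were higher, 3 lower and 18 not called, and the median log2 fold change was 0.59. Without the first sample before transplantation 5 were called higher, and over the other alternatives between 9 and 12. Krt10, the keratin of the epidermal spinous layer, stood at 52.6 and 62.8 CPM before and 321 and 337 CPM after recovery. Abca12, the lipid transporter of lamellar granules, was at 9.63 and 15.99 CPM before and 117 and 111 CPM after recovery. Sbsn (suprabasin), a secreted protein of differentiating keratinocytes, was at 11.05 and 14.8 CPM before and 70.7 and 68.6 CPM after recovery. In each of these genes both recovered samples were several-fold above both earlier ones. Krt10 rose by 2.52 on the log2 scale (SE 0.12, adjusted p = 9.64e-11), Abca12 rose by 3.21 on the log2 scale (SE 0.18, adjusted p = 1.12e-09) and Sbsn rose by 2.45 on the log2 scale (SE 0.18, adjusted p = 2.32e-08). Klk7, a protease of epidermal desquamation, rose from 0.344 and 0.133 CPM to 3.10 and 2.99 CPM (ratio 12.4, exact 95% counting interval 6.88 to 24.4, adjusted p = 0.000765). Padi1, an enzyme that citrullinates keratins, and Alox12, a lipoxygenase, went down, to 2.01 and 2.30 CPM from 14.2 and 16.2 CPM and to 3.06 and 3.03 CPM from 13.2 and 10.5 CPM. Evpl (envoplakin), an envelope scaffold, was at 594 and 691 CPM before and 746 and 728 CPM after recovery and was not called. Outside the list, Cers4, a ceramide synthase, was at 0.497 and 0.797 CPM before and 41.0 and 41.7 CPM after recovery and rose by 6.01 on the log2 scale (SE 0.41, adjusted p = 9.73e-09). Fabp5, the fatty acid binding protein of epidermis, was at 232 and 356 CPM before and 1585 and 1567 CPM after recovery and rose by 2.46 on the log2 scale (SE 0.17, adjusted p = 1.74e-08).

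**Figure D4:**
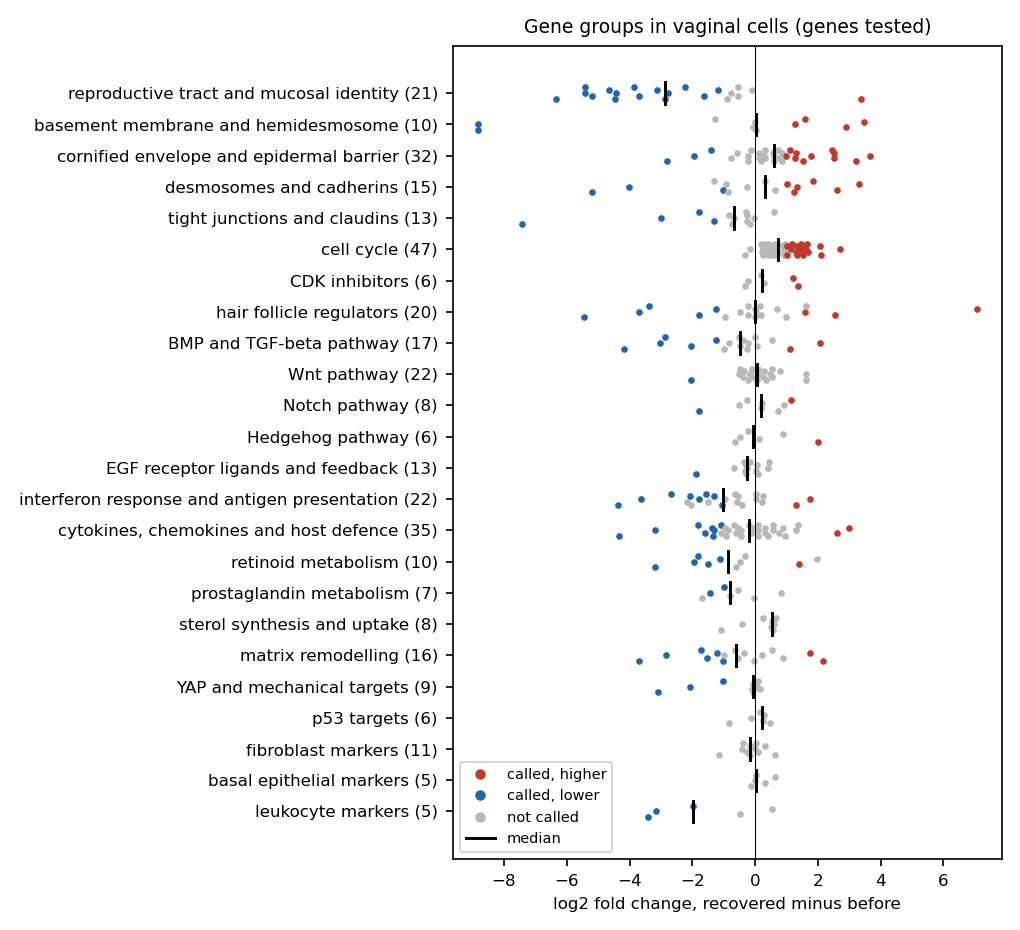
Log2 fold changes (x axis, recovered minus before) of the genes tested in each of 24 groups (y axis, number of genes tested in brackets), with called genes in red and blue, genes not called in grey and a bar at each group's median. The mucosal group is spread to the left with a median of -2.87, the cell cycle group lies to the right with a median of 0.75, and the fibroblast and basal epithelial groups hold no called gene.

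Of 47 cell cycle genes tested 18 rose. By limma voom, edgeR and DESeq2 0 fell, and 0 were lower at an unadjusted p below 0.05. The median log2 fold change was 0.75, and 44 of the 47 had both recovered samples above both earlier ones, against 38.2% of all genes tested and 34.2% of the named genes. Their summed level went from 897 and 1041 CPM to 1764 and 1767 CPM. E2f2, a transcription factor of the G1 to S transition, stood at 3.36 and 3.59 CPM before and 21.2 and 24.4 CPM after recovery and rose by 2.71 on the log2 scale (SE 0.21, adjusted p = 5.25e-08). Cdc20, the activator of the anaphase-promoting complex, was at 25.8 and 38.6 CPM before and 136 and 131 CPM after recovery and rose by 2.09 on the log2 scale (SE 0.22, adjusted p = 1.62e-06). Cenpa, the histone H3 variant of centromeres, was at 1.07 and 2.13 CPM before and 5.78 and 6.79 CPM after recovery and rose by 2.08 on the log2 scale (SE 0.35, adjusted p = 0.000173). Ccnb1 (cyclin B1) was at 16.6 and 24.3 CPM before and 65.8 and 63.9 CPM after recovery and rose by 1.70 on the log2 scale (SE 0.18, adjusted p = 1.57e-06). Birc5 (survivin), at 5.85 and 10.6 CPM before and 18.3 and 19.7 CPM after recovery, had its first sample before transplantation below the second, and the summed level of the list did too. Without that first sample 14 of the 47 were called, and the log2 fold change of Birc5 was 0.82. Ccne1 (cyclin E1), not called, stood at 95.7 and 105 CPM before and 89.6 and 90.8 CPM after recovery. Of the 6 inhibitors of cyclin-dependent kinases tested, Cdkn1c rose from 33.2 and 43.6 CPM to 93.3 and 103 CPM (adjusted p = 1.96e-07) and Cdkn2c from 2.48 and 1.77 CPM to 5.24 and 4.63 CPM (adjusted p = 8.18e-05), and Cdkn1a (p21) stood at 280.3 and 308 CPM before and 347 and 361 CPM after recovery without a call. Without the second sample before transplantation the log2 fold change of Cdkn2c was 0.97, short of 2-fold. Of 6 p53 targets 0 were called by limma voom, edgeR or DESeq2, with 1 higher and 1 lower at an unadjusted p below 0.05.

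Among 20 hair follicle regulators 3 were higher (15%), 5 lower (25%) and 12 not called, and the median log2 fold change was 0.0022. The shares lie near the 10.0% higher and 19.2% lower among the named genes. Tfap2b, a transcription factor of ectodermal development, had 1 count in each sample before transplantation and stood at 8.42 and 8.14 CPM in the recovered ones (ratio 201.5, exact 95% counting interval 55.4 to 1669, SE 0.63, adjusted p = 2.27e-07). Tbx1, a T-box factor of pharyngeal and ectodermal organs, was at 2.18 and 1.91 CPM before and 10.5 and 13.8 CPM after recovery and rose by 2.56 on the log2 scale (SE 0.34, adjusted p = 2.05e-05). Irx4 was also called higher, with 3 counts before and 12 after recovery (ratio 3.71, exact 95% counting interval 1.000 to 20.5), but its adjusted p was 0.0589 by edgeR and 0.128 by DESeq2. Cd200, an immune-regulating surface protein used as a marker of the follicle bulge, went the other way. It stood at 359.7 and 309 CPM before and 8.04 and 7.34 CPM after recovery and fell by 5.44 on the log2 scale (SE 0.17, adjusted p = 1.49e-12). Cd34, another marker of the mouse bulge, fell from 4.97 and 3.94 CPM to 0.461 and 0.244 CPM (adjusted p = 3.06e-05), and Dlx6, a homeobox factor, from 2.64 and 3.37 CPM to 0.293 and 0.244 CPM (adjusted p = 8.73e-06). Means in whisker cells before and after transplantation were 16.9 and 13.0 CPM for Cd200 and 0.0416 and 0.0460 CPM for Cd34. Both genes were thus lower in cultured whisker cells than in vaginal cells before transplantation. Whisker means were 34.1 and 48.5 CPM for Tfap2b and 144 and 95.3 CPM for Tbx1. Edar, the ectodysplasin receptor of placode formation, fell from 1.72 and 1.86 CPM to 0.419 and 0.592 CPM (adjusted p = 0.00172).

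Among 17 genes of the BMP and TGF-beta pathway tested 2 rose (11.8%) and 5 fell (29.4%), with a median log2 fold change of -0.50. Of the named genes 10.0% rose and 19.2% fell. The ligands moved in both directions. Bmp2 was at 2.33 and 2.97 CPM before and 10.6 and 11.5 CPM after recovery and rose by 2.07 on the log2 scale (SE 0.20, adjusted p = 5.38e-07), while Bmp4 was at 16.6 and 13.3 CPM before and 2.51 and 1.71 CPM after recovery and fell by 2.86 on the log2 scale (SE 0.21, adjusted p = 2.40e-08). Bmp8b fell by 3.04 on the log2 scale (SE 0.15, adjusted p = 2.99e-10). The type I receptor Bmpr1b fell to 4 and 1 counts (ratio 18.4, exact 95% counting interval 7.56 to 58.0, SE 0.72, adjusted p = 0.000221), and Bambi, a decoy receptor, rose from 0.917 and 0.753 CPM to 1.68 and 2.02 CPM (adjusted p = 0.00496). Its log2 fold change was 0.999 without the second sample before transplantation and 0.992 without the second recovered sample.

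The Wnt pathway, which starts follicle formation, had 1 of 22 genes called, Cxxc5, a dishevelled-binding inhibitor, which fell from 1.61 and 1.95 CPM to 0.377 and 0.452 CPM (adjusted p = 0.000666). The median over the 22 was 0.072. Of 8 Notch pathway genes Numbl, a relative of the inhibitor Numb, rose and Dtx3l, a ubiquitin ligase, fell, with log2 fold changes of 1.14 and -1.77. Without the second sample before transplantation that of Numbl was 0.99. Of 6 Hedgehog pathway genes the effector and target Gli1 rose, from 0.956 and 0.797 CPM to 3.44 and 3.79 CPM (adjusted p = 6.65e-05). Of 13 genes for EGF receptor ligands and feedback only Btc (betacellulin) was called, lower, from 1.797 and 1.15 CPM to 0.293 and 0.487 CPM, with an adjusted p of 0.0551 without the first sample before transplantation and of 0.0556 without the first recovered sample. These lists are incomplete, since names were at hand for only a part of each pathway, and the p-values that missed the threshold do not show that the pathways were alike in the 2 groups.

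Of 22 genes for the interferon response and antigen presentation 8 fell and 2 rose, with a median log2 fold change of -1.01 against -0.12 over the named genes. The leukocyte markers Cd68, Coro1a and Cd28 were lower in the same samples, and their part in this group was not tested. Ifit2, an interferon-induced RNA-binding protein, stood at 28.4 and 29.4 CPM before and 1.47 and 1.29 CPM after recovery and fell by 4.38 on the log2 scale (SE 0.26, adjusted p = 1.76e-09). Slfn5, an interferon-induced Schlafen family member, was at 24.9 and 29.1 CPM before and 2.64 and 1.81 CPM after recovery and fell by 3.63 on the log2 scale (SE 0.20, adjusted p = 1.32e-09), and Ifi47, an interferon-gamma-induced GTPase, at 29.2 and 26.8 CPM before and 3.73 and 4.94 CPM after recovery and fell by 2.69 on the log2 scale (SE 0.21, adjusted p = 6.31e-08). Isg15, an interferon-induced ubiquitin-like protein, was at 2.52 and 2.97 CPM before and 2.56 and 1.71 CPM after recovery and was not called. The 2 genes that rose belong to MHC class II presentation. Ciita, its master regulator, went from 1.03 and 1.37 CPM to 2.64 and 3.24 CPM (adjusted p = 0.00214) and Cd74, the invariant chain, from 1.41 and 0.975 CPM to 4.44 and 3.76 CPM (adjusted p = 0.0294), but without either sample before transplantation or the first recovered one the adjusted p of Cd74 lay between 0.082 and 0.142.

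Among 35 genes for cytokines, chemokines and host defence 8 fell (22.9%), 2 rose (5.71%) and 25 were not called. Of the named genes 19.2% fell and 10.0% rose, so the group as a whole stayed near that background. Its median log2 fold change was -0.20 against -0.12 over the named genes. C3, the central complement component, was at 27.9 and 27.7 CPM before and 1.17 and 1.53 CPM after recovery and fell by 4.34 on the log2 scale (SE 0.32, adjusted p = 2.39e-08). Csf3 (G-CSF), a neutrophil growth factor, was at 66.6 and 62.7 CPM before and 7.21 and 7.03 CPM after recovery and fell by 3.18 on the log2 scale (SE 0.28, adjusted p = 2.41e-07). Defb1, an epithelial defensin, was at 2.56 and 2.97 CPM before and 0.670 and 0.870 CPM after recovery and fell by 1.81 on the log2 scale (SE 0.40, adjusted p = 0.00186). Cxcl6, a neutrophil chemokine, fell by 1.61 on the log2 scale (SE 0.19, adjusted p = 4.92e-06). Il36rn, the antagonist of the IL-36 receptor, rose, from 4.21 and 5.49 CPM to 29.4 and 28.7 CPM (adjusted p = 1.72e-09), and so did Il1r2, the decoy receptor of interleukin 1, from 0.497 and 0.310 CPM to 3.81 and 2.96 CPM (adjusted p = 3.02e-06).

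Retinoic acid is made from retinol by dehydrogenases, carried by binding proteins and broken down by Cyp26 enzymes. Of 10 genes tested 5 fell and 1 rose, with a median log2 fold change of -0.87. Adh7, an alcohol dehydrogenase that oxidises retinol, was at 0.765 and 0.620 CPM before and 0 and 0.244 CPM after recovery, the latter 0 and 7 counts (ratio 5.24, exact 95% counting interval 2.29 to 14.0, adjusted p = 0.00196). Aldh1a3, an enzyme that makes retinoic acid, was at 55.7 and 65.7 CPM before and 15.5 and 15.9 CPM after recovery and fell by 1.94 on the log2 scale (SE 0.14, adjusted p = 2.75e-08). Crabp2, a carrier, was at 333 and 402 CPM before and 132 and 126 CPM after recovery and fell by 1.503 on the log2 scale (SE 0.12, adjusted p = 4.29e-08), and Dhrs3, a retinaldehyde reductase, at 294 and 217 CPM before and 70.5 and 72.6 CPM after recovery and fell by 1.82 on the log2 scale (SE 0.12, adjusted p = 8.51e-09). Cyp26b1, which degrades retinoic acid, was the 1 that rose, with 20.03 and 20.3 CPM before and 51.5 and 55.4 CPM after recovery (log2 fold change 1.41, SE 0.11, adjusted p = 5.91e-08).

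Prostaglandin synthesis had 2 of 7 genes lower (28.6%), against 19.2% of the named genes. Ptgs1, the constitutive cyclooxygenase, was at 318 and 318 CPM before and 117 and 116 CPM after recovery and fell by 1.44 on the log2 scale (SE 0.083, adjusted p = 1.60e-09). Ptges, a prostaglandin E synthase, was at 117 and 135 CPM before and 62.6 and 63.1 CPM after recovery, with a log2 fold change of -1.002 at the threshold itself, and of -0.90 without the second sample before transplantation. Of 8 genes of sterol synthesis and uptake limma voom called 0 and edgeR and DESeq2 each called 1 lower, while 6 were higher and 2 lower at an unadjusted p below 0.05.

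Among 16 genes of matrix remodelling 6 fell (37.5%) and 2 rose (12.5%), where 19.2% of the named genes fell and 10.0% rose. Adam19, a membrane metalloproteinase, went from 1.57 and 1.68 CPM to 0.168 and 0.0696 CPM, the latter 4 and 2 counts (ratio 14.2, exact 95% counting interval 6.25 to 39.9, adjusted p = 0.000145). Ctsl (cathepsin L), a lysosomal protease, was at 1510.4 and 1344 CPM before and 493 and 499 CPM after recovery and fell by 1.52 on the log2 scale (SE 0.12, adjusted p = 8.36e-08). Timp3, a tissue inhibitor of metalloproteinases, fell by 2.83 on the log2 scale (SE 0.38, adjusted p = 1.97e-05), and Adamts1, a secreted protease, fell by 1.72 on the log2 scale (SE 0.31, adjusted p = 0.00037). Crispld2, a secreted matrix protein, rose from 6.38 and 5.67 CPM to 27.6 and 26.5 CPM (adjusted p = 4.55e-10). Of 9 targets of YAP and of mechanical load 3 fell (33.3%), against 19.2% of the named genes. Ankrd1, a stress-responsive nuclear cofactor, had 0.153 and 0.133 CPM before and 0 counts in both recovered samples, so that it was at least 1.24-fold lower against the floor of 3 counts per library (adjusted p = 0.00541), with an adjusted p of 0.05001 without the second recovered sample. Acta2 (smooth muscle actin) stood at 2.18 and 2.30 CPM before and 0.670 and 0.418 CPM after recovery and fell by 2.06 on the log2 scale (SE 0.35, adjusted p = 0.000227). Cyr61, a secreted matricellular protein, fell from 580.2 and 474 CPM to 253 and 269.8 CPM (adjusted p = 2.15e-05), with log2 fold changes of -0.88 and -0.96 without the first sample before transplantation and without the first recovered sample.

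Another list was made of genes that the study names. Of its 38 members only 11 could be paired with an identifier and tested, so the counts cover a part of the list. Lhx2, Foxn1, Gata3, Hr and Lef1, which the study reports as higher in recovered vaginal cells by quantitative PCR, were not among those tested. Of the 11 tested 6 were lower and 2 higher. The lower ones were Krt4, Krt8, Krt18, Foxa1, Ptgs1 and Ptges. The higher ones were Itgb8 and Chst11, a chondroitin sulfotransferase, which stood at 5.89 and 4.56 CPM before and 13.3 and 13.8 CPM after recovery and rose by 1.37 on the log2 scale (SE 0.18, adjusted p = 1.51e-05). Beside Isl1, the genes not called were Dkk3, a secreted Dickkopf family protein, at 3.33 and 1.86 CPM before and 1.63 and 1.88 CPM after recovery, and Wnt3, a Wnt ligand, at 0.459 and 0.310 CPM before and 0.419 and 0.209 CPM after recovery. Aire, the autoimmune regulator of thymic epithelium and the 1 marker of other epithelia tested, was called higher at 0.956 and 1.42 CPM before and 3.44 and 3.10 CPM after recovery.

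The largest rise among named genes with at least 10 CPM was that of Cspg4 (ENSRNOG00000017208), the NG2 proteoglycan of pericytes and of some epidermal progenitors. It had 5 counts in each sample before transplantation (0.191 and 0.222 CPM) and stood at 31.9 and 31.3 CPM in the recovered ones. That is a difference of 7.13 on the log2 scale (SE 0.38, adjusted p = 6.49e-10). Further rises were those of Hpcal4, a neuronal calcium sensor, of Fam132a, a secreted hormone-like protein, of Adgrf2, an adhesion G protein-coupled receptor, of Clip4, a cytoskeleton-linked protein, and of Palmd (palmdelphin). Their log2 fold changes lay between 2.59 and 3.06, with levels in the recovered cells from 11.8 and 11.5 CPM for Hpcal4 to 99.3 and 97.1 CPM for Clip4.

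The largest falls had a wider range of roles. Timd2, a surface receptor for ferritin, went from 15.1 and 15.8 CPM to 2 and 1 counts (ratio 271, exact 95% counting interval 92.2 to 1315, SE 0.72, adjusted p = 3.70e-07). Csmd1, a complement-regulating membrane protein, went from 12.2 and 10.7 CPM to 1 count in each recovered sample (ratio 303, exact 95% counting interval 83.4 to 2506, SE 0.74, adjusted p = 5.97e-07). Prom1 (CD133), a protein of membrane protrusions, stood at 621 and 573 CPM before and 10.3 and 9.68 CPM after recovery and fell by 5.90 on the log2 scale (SE 0.14, adjusted p = 6.23e-14). Akap12, a scaffold for protein kinase A, stood at 440.2 and 548 CPM before and 11.02 and 12.3 CPM after recovery and fell by 5.39 on the log2 scale (SE 0.14, adjusted p = 9.17e-14). Cndp1, a carnosine dipeptidase, fell by 6.72 on the log2 scale (SE 0.38, adjusted p = 1.29e-09), Cobl, an actin nucleator, fell by 5.19 on the log2 scale (SE 0.22, adjusted p = 4.29e-11), and Adipoq, the hormone adiponectin, fell by 5.39 on the log2 scale (SE 0.45, adjusted p = 1.22e-07). These genes were picked as the largest falls, so that both recovered samples lay below both earlier ones in each follows from the choice. The same order held for 46.7% of the named genes and 38.4% of all genes tested. At high expression, Capn1 (calpain 1) fell from 1214 and 1119 CPM to 454 and 426 CPM (adjusted p = 1.44e-10).

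The change in vaginal cells was set against the mean change of the bladder, trachea, thymus and whisker cells, which share no sample with them. The difference was called for 1980 genes (14.9%), 827 of them with the vaginal change the higher (6.22%) and 1153 with it the lower (8.67%). The error of this test is that between replicates, and it holds no term for the spread between the 4 other tissues. Esr1 had -5.82 for the difference (SE 0.43, adjusted p = 2.71e-08) and log2 fold changes of 1.04, 0.63, 0.58 and 2.37 in bladder, trachea, thymus and whisker cells. The changes in trachea and thymus cells were not called, and that in whisker cells rests on 3 and 0 counts before and 9 and 5 counts after transplantation. For Krt4 the difference was -7.18 (SE 0.66, adjusted p = 3.10e-07), with 3.13, -0.70, 4.47 and 0.15 in the same order of tissues. Krt8, by contrast, fell in all 5 kinds of cell, with -2.59, -2.17, -2.63 and -2.31 in the other 4. The change in whisker cells rests on 20 and 15 counts before and 1 and 8 counts after transplantation. Krt8 fell more in vaginal cells (difference -2.98, SE 0.28, adjusted p = 3.74e-07). For Krt18 the difference was 0.012 (SE 0.41, adjusted p = 0.983) and not called. The other 4 did not change alike, with -3.84, -3.43, 1.20 and -2.96 in the same order of tissues, each called. Krt18 thus rose in thymus cells. Its change in whisker cells rests on mean levels of 0.424 CPM before and 0.0691 CPM after transplantation. Of the 21 reproductive tract and mucosal genes 18 were called in this difference, and of the 47 cell cycle genes 24, against 33.0% of the named genes. For Krt10, not called in it, the difference was 0.11 (SE 0.20, adjusted p = 0.699). That mean hides unlike changes of Krt10, with 7.14, 0.0042, 3.32 and -0.81 in the same order of tissues. Only the rises in bladder and thymus cells were called.

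Calls were also counted tissue by tissue. Of the 565 genes higher in recovered vaginal cells 303 were called higher in none of the other 4 tissues, 141 in 1, 78 in 2, 40 in 3 and 3 in all 4, and 242 were called lower in at least 1. The 262 called higher in at least 1 were 46.4% and the 242 called lower in at least 1 were 42.8%, where 18.4% and 19.8% of all genes tested were called higher and lower in at least 1 of these tissues. Of the 1002 lower genes 415 were called lower in none of the others, 291 in 1, 206 in 2, 77 in 3 and 13 in all 4, and 452 were called higher in at least 1, which came to 58.6% called lower and 45.1% called higher in at least 1, against the same 19.8% and 18.4%. The 308 genes lower in both vaginal and trachea cells were 30.7% of the vaginal and 28.8% of the trachea falls. Of all genes tested 8.04% fell in trachea cells. The tissues were not alike. In thymus cells 274 of the vaginal falls were called higher and 219 lower. Of the vaginal rises 110 were called lower and 85 higher in trachea cells, and 79 lower and 39 higher in whisker cells. In the remaining comparisons, both directions in bladder cells among them, more genes were called in the same direction than in the opposite one.

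**Figure D5:**
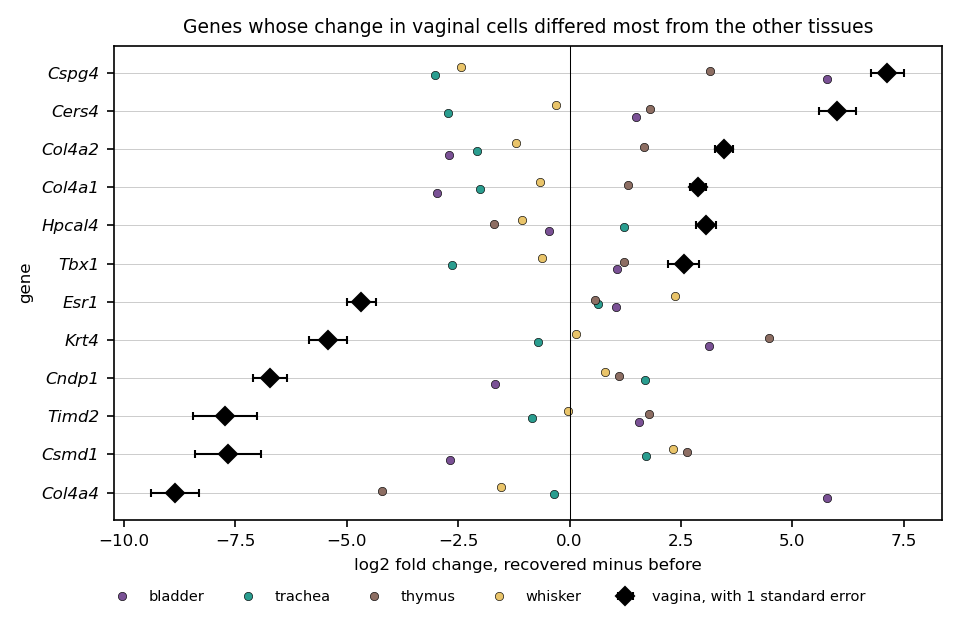
Log2 fold changes (x axis, recovered minus before) of 12 genes (y axis) in vaginal cells (black diamonds with 1 standard error) and in the 4 other kinds of cell (coloured points), for the 6 genes in each direction with the largest difference among called genes with at least 10 CPM. Esr1 lies at -4.67 in vaginal cells and above 0 in the others, of which trachea and thymus were not called and whisker rests on at most 9 counts a sample, and Col4a1 and Col4a2 lie above 2.8 in vaginal cells and below 1.7 in the others.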

How the data were processed

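Libraries (TruSeq Stranded mRNA) of 20 samples were sequenced. The authors trimmed reads with cutadapt 1.8, aligned them to Rnor_6.0 with STAR 2.5.2b, counted them with HTSeq 0.6.1 and deposited raw counts per Ensembl gene. The strand setting of the counting is not given in the sources used here, so overlapping and antisense genes are uncertain. Reads with several alignments, 33.3 to 35.8% of each vaginal library, and rows of other species were left out.

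Genes reaching 1 CPM in any sample were tested (13302 of 32494). After TMM scaling and voom, limma fitted a mean for each of 10 groups with 10 residual degrees of freedom (R 4.3.3, edgeR 4.0.16, limma 3.58.1), with Benjamini-Hochberg adjustment over all genes tested. An exact permutation test of 2 samples against 2 cannot go below 0.33 and was not used. Alternatives were edgeR's quasi-likelihood test, DESeq2 1.42.0, other scaling and filters, a replicate block, a fit of the vaginal samples alone, a higher fold threshold and each vaginal sample left out. The limma voom test was checked on simulated data. Same-numbered vaginal samples did not deviate together (r = 0.046), so the numbers were not taken to pair them. Intervals of count ratios cover counting error only.

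Symbols from the study's tables of genes that differed from whisker follicle cells in this RNA-seq series paired 2311 identifiers. Named genes were, by rule, the 12 largest rises and falls with at least 10 CPM, up to 3 called members of a list in each direction, abundant marker genes, genes the study names, the 6 largest differences from the other tissues in each direction, and the 3 called genes of highest CPM in each direction. Birc5, Ccnb1, Ccne1, Cdkn1a, Cgnl1, Cldn4, Col7a1, Crabp2, Cxcl6, Edar, Emx2, Evpl, Isg15, Krt19, Pigr, Psca, Sbsn and Tspan8 were added after their values were seen. The members and lists were chosen with earlier results of these data known. Many genes counted in the groups are not reported here by name.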

Additional observations from a re-analysis of the deposited data

Results flagged for a closer look

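The difference between the change in vaginal cells and the mean change of the bladder, trachea, thymus and whisker cells passed the test for 1980 genes, by an interaction term in the limma voom fit. Among named genes with at least 10 CPM, those with the largest differences toward higher levels in recovered vaginal cells were Cspg4 (6.26 on the log2 scale, SE 0.45), Cers4 (5.95, SE 0.44), Col4a2 (4.54, SE 0.22), Col4a1 (3.97, SE 0.20), Hpcal4 (3.56, SE 0.29) and Tbx1 (2.80, SE 0.38). Those toward lower levels were Col4a4 (-8.76, SE 0.60), Csmd1 (-8.66, SE 0.86), Timd2 (-8.35, SE 0.80), Cndp1 (-7.20, SE 0.52), Krt4 (-7.18, SE 0.66) and Esr1 (-5.82, SE 0.43). Cspg4 also rose in bladder cells (5.77 on the log2 scale) and thymus cells (3.16), and both changes were called. It fell in trachea cells (-3.03) and whisker cells (-2.42), where no sample held more than 10 and 35 counts. For Col4a4, Csmd1 and Timd2 the size of the difference depends on the prior count of the fit, because the recovered samples held 1 to 3 counts each. Groups of 2 samples leave no test for a single sample far from its group.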

How the results depend on the processing

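The 1567 calls (565 higher, 1002 lower) and the 1980 differences from the other tissues stayed within 1.5 times under edgeR, DESeq2, DESeq2 size factors, both other filters, the 4-sample fit and the interaction without whisker cells (2411). Raising the fold threshold to a log2 fold change of 2 left 682 calls, 177 higher and 505 lower, and 869 differences from the other tissues. Leaving out each vaginal sample in turn gave 1302 to 1526 calls, 375 to 568 higher, 851 to 958 lower, and 1711 to 1934 differences. The lowest count of higher genes, 375, came without the first sample before transplantation, when 28.8% of calls were higher, against 36.1% with all samples. With a lone sample in an arm, its spread is assumed to be that of the other groups. With the replicate block, the fit of all samples called 1595 genes (579 higher, 1016 lower) and 2013 differences, and 1553 of the 1567 calls kept their direction, and the labels share replicate numbers only as numbers. A block in the fit of the 4 vaginal samples, added after the data were seen, called 1673 genes. Without a filter on low counts the median log2 fold change of all genes shifted by -0.10. Of 130 named genes, 110 kept their call and direction in every alternative. Wnt3 changed direction without the second recovered sample (0.14, between -0.83 and 0.14 over the samples left out) and was not called in any.

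Depth limits statements on genes near 3 counts per library, and 2 samples in a group limit all of them. Recovery, passage through the graft and the second culture, and any difference between the cultures sequenced, cannot be told apart. Names were known for a minority of the genes tested, so gene groups are incomplete.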

Other observations

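The genes of this section lie outside the naming rule and were chosen after their values were seen, with adjusted p-values from limma voom over all genes. Cftr, the chloride channel of secretory epithelia, stood at 12.7 and 10.99 CPM before and 0.251 and 0.418 CPM after recovery, with both recovered samples far below the earlier ones, and fell by 5.09 on the log2 scale (SE 0.68, adjusted p = 2.02e-05). Car2 (carbonic anhydrase 2), which forms bicarbonate, stood at 41.6 and 36.3 CPM before and 3.90 and 4.00 CPM after recovery and fell by 3.29 on the log2 scale (SE 0.16, adjusted p = 2.10e-10). Clic6, a protein of the chloride intracellular channel family, fell by 4.66 on the log2 scale (SE 1.04, adjusted p = 0.00208). Fads1, a desaturase of long polyunsaturated fatty acids, stood at 182 and 202 CPM before and 36.3 and 33.5 CPM after recovery and fell by 2.46 on the log2 scale (SE 0.092, adjusted p = 9.37e-12), and Fads2, another such desaturase, stood at 139 and 152 CPM before and 46.8 and 46.6 CPM after recovery and fell by 1.64 on the log2 scale (SE 0.12, adjusted p = 1.95e-08).

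Asns (asparagine synthetase) was at 169 and 198 CPM before and 404 and 386 CPM after recovery and rose by 1.11 on the log2 scale (SE 0.089, adjusted p = 6.48e-08), but by 0.98 without the first sample before transplantation. Ddit4, an inhibitor of mTORC1 induced by stress, was at 193 and 210.3 CPM before and 512 and 531 CPM after recovery and rose by 1.37 on the log2 scale (SE 0.073, adjusted p = 6.49e-10), and Atf5, a transcription factor of the stress response, was at 29.1 and 27.8 CPM before and 63.7 and 66.6 CPM after recovery and rose by 1.20 on the log2 scale (SE 0.078, adjusted p = 6.53e-09). F3 (tissue factor), which starts coagulation, was at 1016 and 912 CPM before and 203 and 195 CPM after recovery and fell by 2.28 on the log2 scale (SE 0.085, adjusted p = 9.37e-12). Cd24, a surface glycoprotein of many epithelia, was at 483 and 524 CPM before and 149 and 152 CPM after recovery and fell by 1.74 on the log2 scale (SE 0.11, adjusted p = 3.53e-09).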
